A study of Mus musculus with 42 samples.

Results

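The chemokines and chemokine receptors of the mouse were followed here as 1 gene family across 42 tissue libraries. The members were chosen by name and by a single measured value, a count above 0: they were the protein-coding genes whose GENCODE M21 symbol is Ccl, Cxcl, Ccr or Cxcr followed directly by a number, or is Cx3cl1, Cx3cr1 or Xcl1, with at least 1 count in any library. The rule gave 53 members of the 49585 gene IDs in the count table, or of the 20532 protein-coding genes with a count. They comprised 35 ligands and 18 receptors, and 14 of them lie on chromosome 11. At the edge of the rule, Ccl26 had 7 counts over all libraries, Cxcr1 had 33 and Ccr1l1 had 88, while Ccl21b and Ccl27b, the near copies of Ccl21a and Ccl27a, had none. Reads of such copies can be split or discarded in counting, so the values of Ccl21a and Ccl27a are uncertain.

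Chemokines are small secreted or membrane-tethered proteins that steer migrating cells along gradients, and their receptors are G protein-coupled receptors. Inflammatory ligands such as Ccl2, Ccl3 and Cxcl1 are made on demand by macrophages, stromal cells and other cells and recruit monocytes, macrophages and neutrophils. Homeostatic ligands such as Cxcl12, Ccl25, Ccl19 and Ccl21a are made steadily by stroma, and in the thymus they bring in progenitors and move thymocytes between cortex and medulla through Cxcr4, Ccr9 and Ccr7. In the intestine Ccl25 acts on Ccr9 of lymphocytes that home to the small bowel.

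RNA was sequenced in bulk from 4-week-old mice of a mixed strain background (50% BALB/C and 50% C57BL6). The labels name 4 genotypes of the p53 gene: p53-null (Null below), p53 +/- (Het), p53 AD/- (AD) and p53 RP/- (RP); each thus carries at least 1 minus allele, and no wild-type mice were analysed here. Thymus was taken 4 h after irradiation from 4 mice of each genotype, and untreated (basal) thymus from 2 Null, 3 Het and 3 AD mice. Basal intestine, liver and pancreas came from 3 AD and 3 Null mice each, and no basal RP tissue was analysed here. Irradiated and basal thymus came from different mice, so irradiation cannot be told apart from whatever else differed between those sets, and the labels give neither the radiation dose nor the sex. The labels number the animals, and the libraries are named below by genotype and animal number. Levels are CPM, read counts scaled to a common library size, on a single scale over all 42 libraries, with trimmed-mean (TMM) factors of 1.38 to 1.53 in irradiated and basal thymus and 0.346 to 0.409 in pancreas, which lower thymus CPM and raise pancreas CPM against plain CPM.

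The labels of irradiated thymus were first checked on the targeted gene and a target of it. Trp53, the gene for p53, was at 13.4 CPM ± 0.655 (SD, n = 4) in irradiated Null thymus and at 21.5 ± 0.830 in Het, 23.9 ± 1.54 in AD and 23 ± 0.892 in RP. Cdkn1a, a p53 target that halts the cell cycle, was at 26.2 to 30.9 CPM in the 4 irradiated Het libraries and at 2.24 to 3.33 CPM in the other 12 irradiated libraries. It thus set only Het apart. In basal thymus Trp53 was above Null by 0.81 in Het and 0.67 in AD on the log2 scale (edgeR adjusted p = 0.00212 and 0.0156). In basal intestine, liver and pancreas its difference of AD from Null was 0.61, 0.19 and -0.31. None of these 3 passed (edgeR adjusted p = 0.199, 0.857 and 0.76). Library totals ran from 19861977 to 34772519 counts. Hepatocyte, acinar, enterocyte and thymocyte marker sums were each highest in the tissue they mark, although the acinar sum reached 74830 CPM in an intestine library. Het-631 stood apart from the other 3 irradiated Het libraries in many immune and epithelial transcripts, with a summed level of 15 macrophage and monocyte markers of 383 CPM against 647 to 790, and of the medullary epithelial regulator Aire of 4.15 against 13.4 to 16.3. Xist, used below for the unlabelled sex, was at 89.3 CPM in Het-631 against 667 to 782 CPM in the other 3. Null-604 (natural killer marker sum of 426 CPM), Het-603 (neutrophil marker sum of 326 CPM) and RP-653 (Cxcr6 of 36.4 CPM) also stood apart from their groups.

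The first question was which members differ between p53 genotypes in irradiated thymus. In Het against Null, 16 of the 49 members tested rose and none fell by edgeR's quasi-likelihood test at an adjusted p under 0.05, which is 32.7% of the members. Over all genes tested, 9.79% were called higher and 9.38% lower. In either direction 19.2% were called. The median log2 difference was 0.275 over the 49 members and -0.005 over all genes. Of the 33 ligands tested 15 rose, and of the 16 receptors tested only Ccr1 rose. The 4 members not tested, Ccl26, Cxcl15, Ccr1l1 and Cxcr1, had too few counts.

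Ligands were grouped here by receptor from a prior list, not from these data. Of the 4 listed under the monocyte receptor CCR2 (Ccl2, Ccl7, Ccl12 and Ccl8), 3 rose, with a median log2 difference of 2.85 over the 4. Ccl2, the monocyte chemoattractant MCP-1 (chromosome 11, 82035571 to 82037453, plus strand, GRCm38), was at 11.3, 12.4, 9.23 and 11 CPM in Het-594, Het-595, Het-603 and Het-631. In Null-593, Null-604, Null-856 and Null-857 it was at 0.802, 0.488, 1.29 and 0.815 CPM. All 4 Het libraries lay far above all Null libraries, and Het-631 lay with the other 3. The log2 difference was 3.67 ± 0.25 (SE; edgeR adjusted p = 5.6e-09). Ccl2 had 1837 counts over the 4 Het libraries and 158 over the 4 Null libraries. In bulk RNA, more cells of a type and more RNA per cell cannot be told apart, for this gene or any below.

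Ccl7, a further CCR2 ligand encoded next to Ccl2 (chromosome 11, 82045712 to 82047525), was at 7.27, 9.04, 5.28 and 8.90 CPM in Het and at 0.369, 0.310, 0.862 and 0.928 CPM in Null. The groups did not overlap, and the difference was 3.60 ± 0.33 on the log2 scale (edgeR adjusted p = 6.49e-07). Ccl12, the mouse chemokine MCP-5 of the same cluster (82101845 to 82103400), was at 5.58, 7.38, 5.77 and 3.23 CPM in Het and at 0.911, 0.731, 1.99 and 1.38 CPM in Null. Here Het-631 was the lowest of its group but still above every Null library, and the difference was 2.11 ± 0.28 (edgeR adjusted p = 3.2e-05). Ccl8, the MCP-2 gene at the end of the cluster (82115185 to 82116799), did not pass. It was at 3.83, 4.45 and 5.08 CPM in Het-594, Het-595 and Het-603 but at 1.27 CPM in Het-631, against 2.21 to 2.59 CPM in Null (0.63 ± 0.29, edgeR adjusted p = 0.143).

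Of the macrophage inflammatory proteins and their relatives (Ccl3, Ccl4, Ccl5, Ccl6 and Ccl9), 4 of 5 rose. Ccl3, the macrophage inflammatory protein MIP-1α (chromosome 11, 83647844 to 83649355, minus strand), was at 3.61, 4.38, 3.97 and 3.84 CPM in Het and at 0.239, 0.244, 0.349 and 0.430 CPM in Null. Its Het libraries spanned a narrow range well clear of Null, and the difference was 3.62 ± 0.33 (edgeR adjusted p = 3.5e-07). Ccl4, MIP-1β, encoded beside Ccl3 (83662584 to 83664683, plus strand), was at 1.16, 1.30, 1.11 and 1.48 CPM in Het and at 0.130, 0.155, 0.349 and 0.272 CPM in Null. The groups were again apart, by 2.44 ± 0.29 (edgeR adjusted p = 7.68e-06). Ccl6 and Ccl9, mouse CCR1 ligands of myeloid cells, rose less: Ccl6 was at 6.78 to 9.78 CPM in Het and 3.71 to 6.07 in Null, and Ccl9 at 7.68 to 9.12 and 5.41 to 7.31. Their differences were 0.63 ± 0.17 and 0.41 ± 0.12 (edgeR adjusted p = 0.0136 and 0.0191). The call for Ccl9 was lost without Null-593 (or Null-604) and when the fit held these 2 groups alone. Ccl5, the T-cell and natural killer product RANTES, was at 12.2, 8.83 and 9.05 CPM in 3 Het libraries, 3.82 CPM in Het-631 and 5.29 to 7.18 CPM in Null, and did not pass (0.46 ± 0.24, edgeR adjusted p = 0.205).

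**Figure D1:**
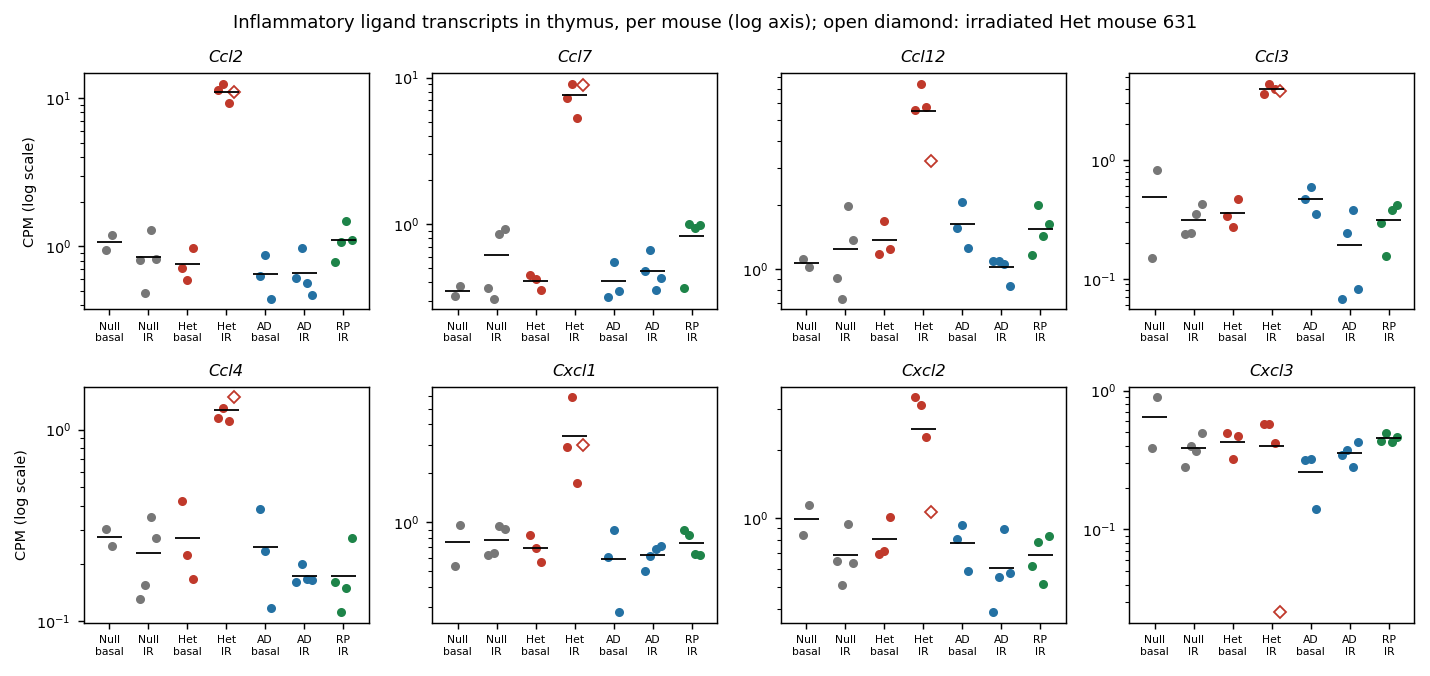
CPM (log axis) of 8 inflammatory ligands in each thymus library by genotype and treatment; each point is a mouse, bars are group means and the open diamond is irradiated Het-631. In Ccl2, Ccl7, Ccl12, Ccl3, Ccl4 and Cxcl1 all 4 irradiated Het libraries lie above all 20 other thymus libraries; in Cxcl3 the groups overlap and Het-631 is at 0.0254 CPM.

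The neutrophil attractants of CXCR2 split. Cxcl1 (chromosome 5, 90891241 to 90893115, plus strand) was at 2.89, 5.87, 1.73 and 2.98 CPM in Het and at 0.629, 0.643, 0.944 and 0.906 CPM in Null. The groups did not overlap, Het-595 was the highest library, and the difference was 2.08 ± 0.29 (edgeR adjusted p = 5.47e-05). Cxcl2 was at 3.39, 3.13, 2.26 and 1.07 CPM in Het and at 0.651, 0.510, 0.944 and 0.634 CPM in Null, with Het-631 just above the Null range (1.82 ± 0.32, edgeR adjusted p = 0.000476). Cxcl3, their neighbour on chromosome 5, was at 0.578, 0.577, 0.421 and 0.0254 CPM in Het and at 0.282, 0.399, 0.369 and 0.498 CPM in Null. These groups overlapped, and Cxcl3 did not pass (0.04 ± 0.42, edgeR adjusted p = 0.965). Cxcl5, another neutrophil attractant, was at 0.200 to 0.361 CPM in Het and 0.0679 to 0.199 CPM in Null and did not pass (1.01 ± 0.49, edgeR adjusted p = 0.171).

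The promoters of the 3 neighbouring CXCR2 ligands are shown because Cxcl1 and Cxcl2 rose and Cxcl3 did not pass, and those of Ccl3 and Ccl12 because they rose and hold no match to the same motif. Each is the RefSeq window of 250 bases before to 50 after the start site in build GRCm38.p6, 5′ to 3′ on the gene's strand. Capitals mark matches to the NF-κB motif searched on both strands, the letters GGG and TTTCC separated by any 2 bases. The windows are chr5:90890995-90891294 (plus), chr5:90903649-90903948 (plus), chr5:90785851-90786150 (plus), chr11:83649329-83649628 (minus) and chr11:82101595-82101894 (plus), in the order printed.
Cxcl1 promoter: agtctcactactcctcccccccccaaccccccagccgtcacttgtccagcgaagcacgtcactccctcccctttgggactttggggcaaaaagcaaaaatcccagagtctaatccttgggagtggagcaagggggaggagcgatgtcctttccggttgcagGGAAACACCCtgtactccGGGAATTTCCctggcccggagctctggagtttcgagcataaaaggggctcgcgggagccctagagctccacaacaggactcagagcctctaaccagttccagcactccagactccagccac
Cxcl2 promoter: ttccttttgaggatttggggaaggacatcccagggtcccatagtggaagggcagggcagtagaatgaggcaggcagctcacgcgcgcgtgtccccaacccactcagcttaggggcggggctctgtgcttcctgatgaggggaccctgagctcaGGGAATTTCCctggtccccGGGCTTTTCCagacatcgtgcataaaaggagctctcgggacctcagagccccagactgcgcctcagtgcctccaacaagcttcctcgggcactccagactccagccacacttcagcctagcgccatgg
Cxcl3 promoter: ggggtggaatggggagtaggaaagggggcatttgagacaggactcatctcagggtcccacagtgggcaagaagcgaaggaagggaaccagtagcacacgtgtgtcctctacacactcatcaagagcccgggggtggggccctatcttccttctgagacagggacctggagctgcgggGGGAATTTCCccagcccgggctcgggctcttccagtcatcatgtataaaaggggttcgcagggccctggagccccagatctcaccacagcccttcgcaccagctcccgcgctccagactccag
Ccl3 promoter: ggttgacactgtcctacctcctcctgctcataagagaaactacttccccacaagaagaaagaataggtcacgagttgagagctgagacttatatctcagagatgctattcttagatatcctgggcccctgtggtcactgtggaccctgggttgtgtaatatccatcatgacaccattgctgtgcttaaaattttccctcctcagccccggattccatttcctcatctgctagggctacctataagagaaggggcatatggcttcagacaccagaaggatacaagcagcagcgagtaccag
Ccl12 promoter: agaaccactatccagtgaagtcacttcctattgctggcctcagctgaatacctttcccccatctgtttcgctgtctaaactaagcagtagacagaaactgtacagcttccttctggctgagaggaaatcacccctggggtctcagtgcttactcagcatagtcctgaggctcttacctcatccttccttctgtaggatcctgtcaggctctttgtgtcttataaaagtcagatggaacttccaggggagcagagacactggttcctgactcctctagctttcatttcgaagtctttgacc
The motif was in 1.63% of the 32851 promoter windows of the table (535) and in 6 of the 43 windows that belong to 39 members, those of Ccl20, Cxcl3, Cxcl1, Cxcl2, Ccr3 and Ccl9. The matches began at -89 and -71 from the start site in Cxcl1, at -97 and -78 in Cxcl2 and at -73 in Cxcl3. No window was held for some members that rose, among them Ccl2, Ccl7, Ccl4, Ccl11, Ccl24 and Cxcl16, so these were not searched. A match describes letters only, and Cxcl3, Ccl20 and Ccr3 hold it without having passed the test. The letters TGANTCA (AP-1), searched on both strands, were in 7.81% of all windows and in those of 8 members, and TATAAA, on both strands, in 13.6% and in 11.

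The ligands listed under CCR3, CCR4 and CCR8 gave 2 calls among 5 tested. Ccl24 and Ccl11, the eotaxins that draw eosinophils, rose. Ccl24 was at 2.36, 2.29, 2.22 and 2.44 CPM in Het and at 0.867, 0.887, 0.759 and 0.679 CPM in Null, groups far apart with little spread (1.52 ± 0.27, edgeR adjusted p = 0.000546). Ccl11, also encoded in the Ccl2 cluster, was at 7.22, 9.77, 7.65 and 6.41 CPM in Het and at 3.75 to 5.34 CPM in Null (0.77 ± 0.18, edgeR adjusted p = 0.00563). Ccl17, Ccl22 and Ccl1 did not pass, with differences of 0.12, 0.25 and 0.32. Cxcl10, an interferon-induced CXCR3 ligand that attracts T cells, was at 12.1, 13, 8.94 and 9.39 CPM in Het and 7.56 to 8.93 CPM in Null. Its groups touched without overlapping, and the call (0.36 ± 0.11, edgeR adjusted p = 0.032) was lost without any of 5 single libraries (Het-594 or Het-595, or Null-593, Null-604 or Null-857). The related Cxcl9 did not pass (0.24 ± 0.31).

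Of the 5 homing ligands tested, Cxcl12 and Ccl25 rose. Cxcl12, the CXCR4 ligand that holds progenitors in stroma, was at 105, 72.3, 77.4 and 88.6 CPM in Het and at 48.8, 52.7, 54.0 and 54.9 CPM in Null. All Het libraries were above all Null libraries (0.68 ± 0.12, edgeR adjusted p = 0.000641). Ccl25, the CCR9 ligand of thymic epithelium, was at 321, 277, 303 and 242 CPM in Het and at 195, 206, 196 and 183 CPM in Null, again without overlap (0.53 ± 0.09, edgeR adjusted p = 0.000341). Ccl19, Ccl21a and Cxcl13, the other 3, did not pass, and none of the 5 epithelial and mucosal ligands tested (Ccl20, Ccl27a, Ccl28, Cxcl14, Cxcl17) did. Cxcl16, the membrane-tethered ligand of CXCR6, was at 27.3, 27.4, 27.2 and 20.3 CPM in Het and 17.3 to 21.9 CPM in Null (0.38 ± 0.09, edgeR adjusted p = 0.00554). Its exons overlap those of Zmynd15 on the other strand over 552 bases (18.3% of its exon length), and the sources used here do not say whether strand was used in counting.

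Among receptors, Ccr1, the myeloid receptor of Ccl3, Ccl6 and Ccl9, was at 4.91, 3.61, 5.81 and 3.46 CPM in Het and at 2.73, 2.06, 2.75 and 3.42 CPM in Null. The highest Null library reached almost to the lowest Het library, and the difference was 0.68 ± 0.17 (edgeR adjusted p = 0.00882). With only these 2 groups in the fit, the calls of Ccr1 and Cxcl16 were lost. The thymocyte receptors did not pass: Ccr9 was at 480, 570, 473 and 363 CPM in Het and 411 to 490 CPM in Null (0.00 ± 0.10). Ccr9 exons overlap those of AC165425.1 on the other strand over 1932 bases (18.8%). Cxcr4 was at 155 to 192 CPM in Het and 145 to 169 CPM in Null (0.20 ± 0.07, edgeR adjusted p = 0.0708). Ccr4, a receptor of medullary thymocytes and regulatory T cells, was at 19.2, 17.9, 19.2 and 9.59 CPM in Het and 21.9 to 28.0 CPM in Null. All Het libraries lay below all Null libraries, but the test fell just short (-0.55 ± 0.19, edgeR adjusted p = 0.0509). The remaining receptors, among them Ccr2, the receptor of Ccl2, and Cxcr2, the receptor of Cxcl1 and Cxcl2, did not pass either (Ccr2 -0.18 ± 0.32, Cxcr2 0.45 ± 0.34).

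Marker sums of other cell types did not all move with these ligands. The macrophage and monocyte list (15 genes, none at 0) summed to 383 to 790 CPM in Het, 430 to 534 in Null, 433 to 497 in AD and 453 to 502 in RP. The neutrophil list summed to 22.6 to 326 CPM in Het and 61.2 to 103 in Null. The thymic epithelium list (12 genes, Ctsv at 0) summed to 1860 to 2448 CPM in Het and 1470 to 1558 in Null, and the endothelium list to 147 to 193 and 128 to 142. The thymic epithelium list was not highest in thymus: its basal AD mean was 3652 CPM in intestine, 1645 in thymus and 1534 in liver. Among its genes, Prss16 (0.59) and Psmb11 (0.43) were called higher in Het than in Null on the log2 scale. Foxn1, Krt5, Krt14 and Aire were not called. The dendritic list, at 29.5 to 47.0 CPM in Het and 35.3 to 42.1 in Null, overlapped, as did the macrophage and neutrophil lists. The natural killer and cytotoxic sum went the other way, at 28.9 to 35.9 CPM in Het and 43.7 to 426 in Null, but single genes of this kind were mixed. On the log2 scale Gzma (-3.28), Ncr1 (-1.51) and Klrb1c (-0.66) were called lower in Het and Nkg7 (0.92) higher. Gzmb, Prf1, Klrk1 and Eomes were not called. The part of these cell types in the differences was not tested. In Het-631 the macrophage and neutrophil sums were the lowest of all 16 irradiated libraries. Ccl2, Ccl7, Ccl3 and Ccl4 were as high in Het-631 as in the other 3 Het mice. How the ligand levels of this single library relate to its marker sums was not tested.

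**Figure D2:**
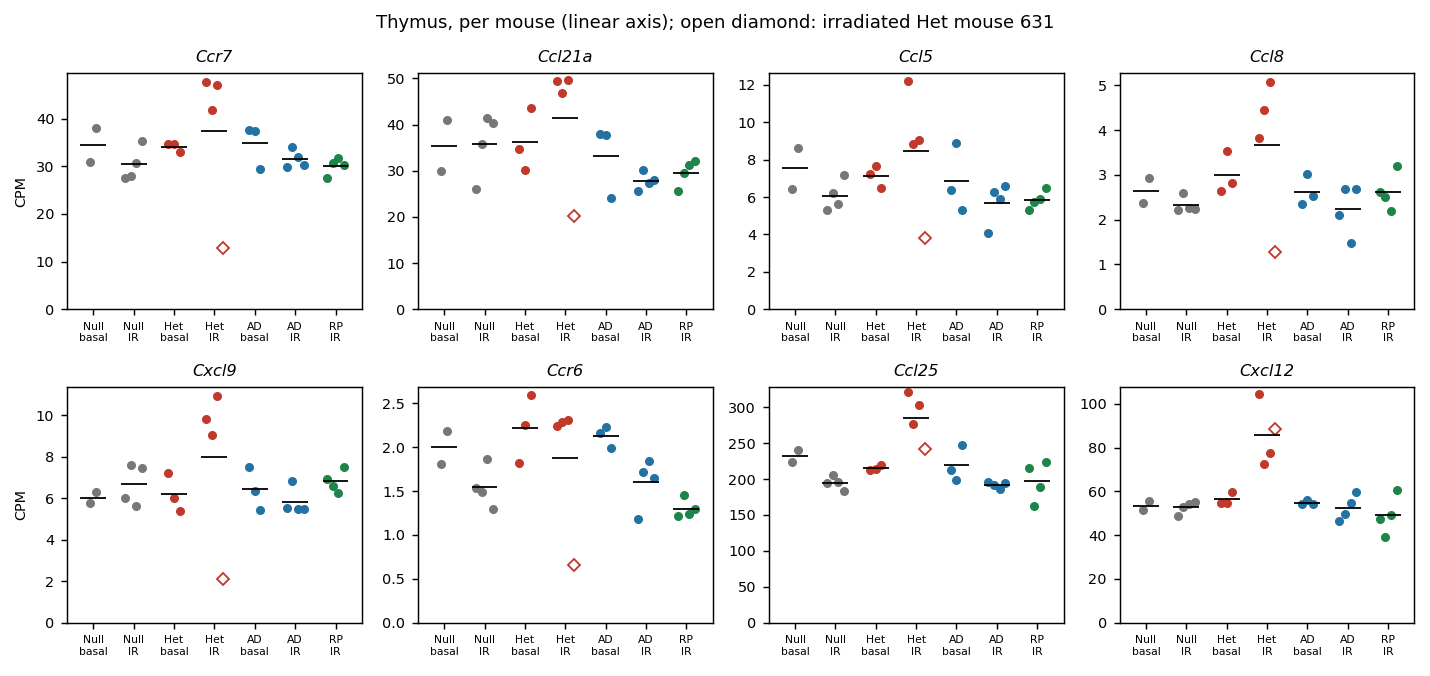
CPM (linear axis from 0) of 8 members in each thymus library; bars are group means and the open diamond is irradiated Het-631. Het-631 is the lowest thymus library in Ccr7, Ccl21a, Ccl5, Ccl8, Cxcl9 and Ccr6, but lies within the other Het libraries in Cxcl12.

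Several members were at their lowest thymus level in Het-631 and at or above the Null range in the other 3 Het mice. Ccr7, the receptor that takes thymocytes to the medulla, was at 47.8, 41.7 and 46.9 CPM in Het-594, Het-595 and Het-603, 12.8 CPM in Het-631 and 27.6 to 35.3 CPM in Null. Ccl21a, a Ccr7 ligand, was at 46.8 to 49.6 CPM in those 3 and at 20.1 CPM in Het-631. Ccr6, the receptor of Ccl20, was at 2.24 to 2.31 CPM and at 0.661 CPM. With Het-631 in the fit none of these passed. Without it, 25 of the members were called higher in Het than in Null, of which 16 were those called with it. The 9 further members were Ccr7 (0.56), Ccl21a (0.42), Ccr6 (0.53), Cxcr4 (0.26), Cxcl9 (0.55), Ccl22 (0.47), Ccl5 (0.70), Ccl8 (0.91) and Ccr3 (1.43), all log2 differences. The number of genes called over the whole table went from 4257 to 5213 with the same change. With Het-631 left out, Xist was at 667 to 782 CPM in the Het libraries and at 763, 738, 2.01 and 23 CPM in Null. The effect of leaving out Het-631 therefore cannot be told apart from that of the unlabelled sex.

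The AD and RP alleles were then set against Null in irradiated thymus. None of the 49 members was called in AD against Null, where 0.027% of all genes were, or in RP against Null, where 0.0315% were. At an unadjusted p under 0.05 edgeR gave 2 members (Ccl24 among them) for AD and 4 (Ccl24, Ccr1, Cx3cr1 and Cxcr2) for RP, of 49 tested in each, beside 7.99% and 5.18% of all genes. DESeq2 called 0 members in both at an adjusted p under 0.05. Ccl2 was at 0.615, 0.969, 0.567 and 0.470 CPM in AD-630, AD-633, AD-726 and AD-727 and at 0.778, 1.08, 1.47 and 1.11 CPM in RP-649, RP-653, RP-654 and RP-656. Both ranges overlapped that of Null. The log2 difference from Null was -0.38 (95% interval -0.92 to 0.16) for AD and 0.36 (-0.15 to 0.87) for RP, so neither interval reached the 3.67 of Het. Ccl3 was at 0.0683, 0.242, 0.378 and 0.0817 CPM in AD and 0.297, 0.157, 0.384 and 0.418 CPM in RP (-0.72, interval -1.53 to 0.08, and -0.02, interval -0.77 to 0.73). Ccl7 gave -0.36 (-1.10 to 0.38) and 0.40 (-0.29 to 1.09). For Cxcl12 the values were -0.00 (-0.24 to 0.23) and -0.12 (-0.36 to 0.11), and for Ccl25 -0.02 (-0.20 to 0.15) and -0.00 (-0.18 to 0.17). Of all 49 members, a single one did not overlap between AD and Null (Ccr2, lower in AD) and a single one between RP and Null (Ccl24, higher in RP). Over all genes tested, 5.34% and 4.43% did not overlap between these groups. Both these contrasts and that of Het share the 4 Null libraries.

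AD and RP did not differ in any member at an adjusted p under 0.05 by edgeR or DESeq2, and 0% of all genes were called by edgeR. At an unadjusted p under 0.05 edgeR gave 6 of the 49 members, beside 6.87% of all genes. Among them the difference of AD from RP was -0.74 for Ccl2 (interval -1.27 to -0.21, edgeR adjusted p = 0.644). Ccl7 was at 0.354 to 0.661 CPM in AD and at 0.366, 1.01, 0.938 and 0.981 CPM in RP, overlapping through RP-649 (-0.76, edgeR adjusted p = 0.728). Ccl12 was the single member whose groups did not overlap, beside 7.89% of all genes, at 0.837 to 1.10 CPM in AD and 1.17 to 1.99 CPM in RP (-0.59, interval -1.15 to -0.02). Ccr2, Cxcr3 and Cxcr6, receptors of monocytes and effector T cells, were lower in AD by 0.95, 1.37 and 1.24 on the log2 scale without passing. RP-653 held 40.3, 8.13 and 36.4 CPM of them, against 12.1 to 15.2, 1.0 to 1.58 and 7.24 to 9.03 CPM in the other 3 RP mice.

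Set against Het directly, 18 members fell in AD and none rose, beside 8.27% of all genes lower and 5.69% higher (14% in all). Ccl3 fell by 4.34 ± 0.35 on the log2 scale (edgeR adjusted p = 7.96e-08) and Ccl2 fell by 4.05 ± 0.26 (edgeR adjusted p = 2.11e-09). Ccl7, Ccl4, Ccl12, Cxcl1 and Cxcl2 fell by 2.01 to 3.96, and Ccr1, Ccl6, Ccl24, Ccl11, Cxcl12, Ccl9, Ccl25, Cxcl10, Cx3cr1 and Cxcl16 by 0.46 to 0.96. The call of Ccl24 was lost without AD-630, AD-726 or AD-727 or Het-594 or Het-595. That of Cx3cr1 was lost without AD-630, AD-633 or AD-726 or Het-595 or Het-603. In RP, 16 members fell (beside 10.2% of all genes) and Ccr4 rose (beside 8.53%, 18.7% of all genes in either direction), by 0.79 ± 0.19 (edgeR adjusted p = 0.00788). Ccl3 fell by 3.64, Ccl2 by 3.31, Ccl7 by 3.20 and Ccl4 by 2.84. Cxcr2, the neutrophil receptor, fell by 1.30 (edgeR adjusted p = 0.0169). It was at 0.512 to 0.772 CPM in RP and at 1.25, 1.03, 2.79 and 1.07 CPM in Het, and its call was lost without Het-603 or RP-654. The call of Ccl11 was lost without Het-595, RP-649 or RP-654. Without Het-631, 24 members fell in AD (17 of the 18 among them), while in RP 26 fell and 1 rose (all 17 among them). Over the whole table the genes called went from 3099 to 4665 for AD and from 4163 to 4775 for RP with the same change. All these contrasts share the 4 Het libraries.

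**Figure D3:**
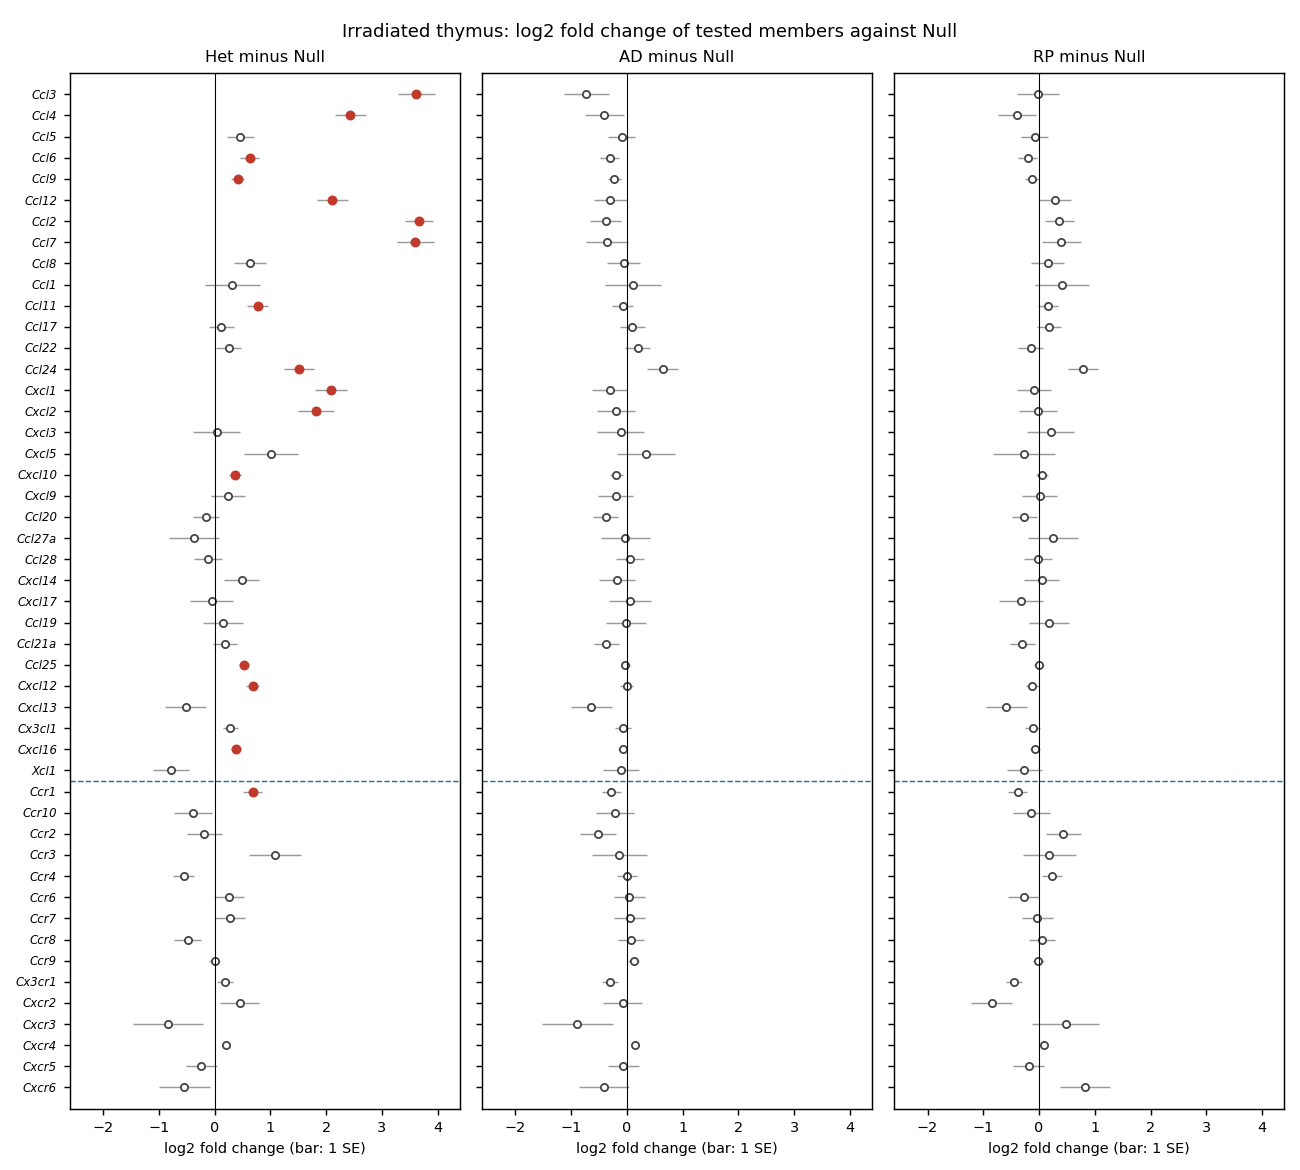
Log2 difference in irradiated thymus (bars are 1 SE) for 48 of the 49 tested members, in Het, AD and RP against Null. Filled red points passed at an adjusted p under 0.05 and open points did not, and the dashed line separates ligands from receptors; 16 points are filled for Het and none for AD or RP.

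Other genes of the chemokine system, outside the family names, were counted from a list of 25 (scavenging receptors, G protein signalling and related genes). In Het against Null 5 of 24 tested rose and 3 fell, beside the 9.79% of all genes called higher and 9.38% lower. Rgs1, a brake on chemokine receptor signalling, rose by 1.58 ± 0.20, and Ccrl2, an atypical receptor of myeloid cells, by 0.90. Pf4, a platelet chemokine, rose by 0.89. Xcr1, the receptor of Xcl1 on cross-presenting dendritic cells, fell by 0.57. In AD and RP against Null none of them was called.

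The next comparison set irradiated against basal thymus within each genotype. In Het, 17 of 49 members rose and 3 fell, beside 8.74% of all genes called higher and 8.09% lower (16.8% in all). In AD and in Null none was called, where 0.546% and 0.131% of all genes were. At an unadjusted p under 0.05 edgeR gave 3 members in AD (Ccl3, Ccl12 and Cx3cr1, all lower) and 2 in Null (Ccl9 higher, Ccl25 lower), beside 12.2% and 7.27% of all genes, and DESeq2 called 0 members in both. Only 2 basal Null libraries entered this contrast. The median member difference was 0.233 in Het, -0.128 in AD and 0.005 in Null.

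Before irradiation Ccl2 was at 0.717, 0.593 and 0.968 CPM in Het-697, Het-703 and Het-855, at 0.949 and 1.18 CPM in Null-859 and Null-923 and at 0.632, 0.871 and 0.444 CPM in AD-700, AD-701 and AD-702. The basal Het range overlapped those of both other groups, while every basal AD library lay below both basal Null libraries. All irradiated Het libraries lay above all 8 basal ones. Ccl2 rose by 3.83 ± 0.28 in Het (edgeR adjusted p = 3.02e-10), against 0.01 (interval -0.58 to 0.61) in AD and -0.30 (-0.91 to 0.32) in Null. Ccl7 was at 0.448, 0.420 and 0.354 CPM in basal Het and rose by 4.20 ± 0.36 (edgeR adjusted p = 6.4e-09). Its difference in AD was 0.24 (-0.52 to 1.0), and in Null 0.83 (-0.03 to 1.70), where 2 irradiated mice were at 0.862 and 0.928 CPM and the other 2 at 0.310 and 0.369. Ccl3 was at 0.336, 0.272 and 0.472 CPM in basal Het and rose by 3.43 ± 0.42. In AD it was at 0.474, 0.595 and 0.351 CPM before irradiation, and its difference was -1.30 ± 0.47 (edgeR adjusted p = 0.262).

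Cxcl1, Ccl4, Ccl12, Cxcl2, Ccl11 and Ccl24 rose in Het by 1.12 to 2.25, and Ccr1, Ccl9, Ccl6, Cxcl12, Cxcl10, Cxcl16 and Ccl25 by 0.39 to 0.98. The call of Ccl6 was lost without basal Het-697 or Het-703 or irradiated Het-603, and that of Ccl24 without basal Het-697. The members that fell were Ccr4 by 0.65, Ccr8, a receptor of Th2 and regulatory T cells, by 0.74, and Xcl1, the ligand of Xcr1, by 1.13 (edgeR adjusted p = 0.0162, 0.0273 and 0.0245). Xcl1 was at 0.919, 1.48 and 1.68 CPM in basal Het and at 0.770, 0.818, 0.776 and 0.127 CPM after irradiation. Het-631 was the lowest library in all 3. Without it Xcl1 (-0.80) and Ccr4 (-0.47) were still called, Ccr8 was not, and Ccr7 was called higher (0.39). The call of Xcl1 was lost without basal Het-703 or Het-855, that of Ccr4 without basal Het-855, and that of Ccr8 also without basal Het-697 or Het-703 or irradiated Het-594.

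**Figure D4:**
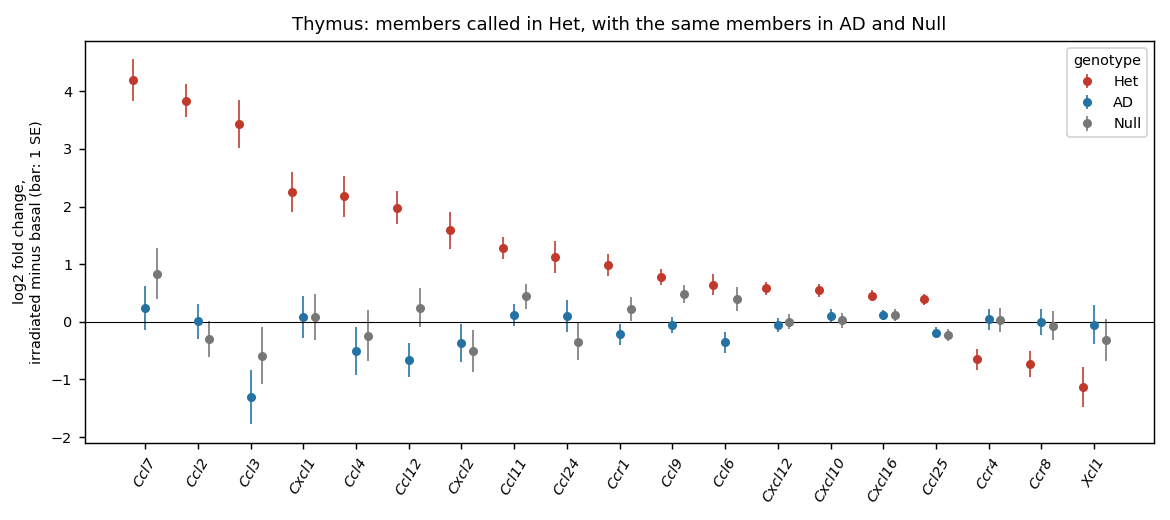
Log2 difference between irradiated and basal thymus (bars are 1 SE) in Het, AD and Null for 19 of the 20 members called in Het. The Het values run from 4.20 for Ccl7 to -1.13 for Xcl1, and none of the AD or Null values was called.

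Whether the change with irradiation differed between genotypes was tested as an interaction. Het against Null gave 8 members, all with the larger rise in Het, beside 2.37% of all genes in that direction, 1.07% in the other and 3.44% in all. They were Ccl2 (4.13 ± 0.41, edgeR adjusted p = 1.98e-07), Ccl3 (4.01 ± 0.64), Ccl7 (3.36 ± 0.58), Ccl4 (2.42 ± 0.57), Cxcl1 (2.16 ± 0.52), Cxcl2 (2.08 ± 0.48), Ccl12 (1.73 ± 0.44) and Ccl25 (0.61 ± 0.14). Without basal Null-923, which leaves Null-859 as the lone basal Null library, 3 members were called. Ccl2 and Ccl7 were called without each single library in turn and under each alternative setting run; Ccl4 was lost without basal Null-859 and by DESeq2, Cxcl1 also without basal Het-855, and Ccl12 without basal Het-697 or Het-855, Null-859 or irradiated Het-595. Het against AD, which shares the Het libraries, gave 13 members, beside 2.94% of all genes in that direction, 1.04% in the other and 3.98% in all. For the inflammatory ligands the differences were Ccl3 4.73 ± 0.63, Ccl7 3.95 ± 0.53, Ccl2 3.82 ± 0.41, Ccl4 2.68 ± 0.55, Ccl12 2.65 ± 0.40, Cxcl1 2.17 ± 0.50 and Cxcl2 1.95 ± 0.46. Smaller ones were those of Ccr1 (1.2), Ccl11 (1.16), Ccl6 (1.0), Ccl9 (0.84), Cxcl12 (0.64) and Ccl25 (0.57). Of these 13, Ccl6, Ccl9, Ccl11, Cxcl12, Cxcl1 and Cxcl2 lost the call without at least 1 single library, among them basal AD-700 for the first 4 and basal AD-701 for the last 2, and Ccl4 lost it by DESeq2. For AD against Null none was called and 0% of all genes were, with 4 members at an unadjusted p under 0.05 (Ccl6, Ccl9, Ccr10 and Cx3cr1) by edgeR, beside 4.12% of all genes, and 0 called by DESeq2. The interval of that difference was -0.55 to 1.16 for Ccl2 and -2.07 to 0.63 for Ccl3.

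Over all 24 thymus libraries, 11 of the 49 members tested were higher in each of the 4 irradiated Het libraries than in each of the other 20, beside 4.61% of all genes tested: Ccl2, Ccl7, Ccl12, Ccl3, Ccl4, Ccl6, Ccl9, Ccl24, Cxcl1, Cxcl12 and Ccr1. For Ccl2 the ranges were 9.23 to 12.4 CPM against 0.444 to 1.47, and for Ccl3 3.61 to 4.38 CPM against at most 0.827. For Ccr1 the lowest irradiated Het library, at 3.46 CPM, lay just above the highest of the other 20, at 3.42 CPM, and for Ccl9 the values were 7.68 and 7.31 CPM. In 10 further members the other 3 irradiated Het libraries were above all 20 and Het-631 was not, beside 2.69% of all genes: Ccl8, Ccl11, Ccl21a, Ccl25, Cxcl2, Cxcl9, Cxcl16, Ccr3, Ccr7 and Cxcr4. Het-631 came near for Cxcl2, at 1.07 CPM against a highest other library of 1.14, and for Ccl25, at 242 CPM against 248, and was far below for Ccr7, at 12.8 CPM against 38.0.

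Without irradiation no member was called between genotypes in thymus. The counts over all genes were 0.0676% for Het against Null, 0.0676% for AD against Null and 0% for AD against Het. At an unadjusted p under 0.05 edgeR gave 1 member (Ccr3), 6 members and 1 member (Ccr10) in these contrasts, beside 7.18%, 7.69% and 3.5% of all genes, and DESeq2 called no member. The lowest edgeR p among members in AD against Null was that of Ccr10, a receptor of mucosal lymphocytes (0.87 ± 0.26, edgeR adjusted p = 0.373).

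In intestine, liver and pancreas of AD and Null mice, no member was called by edgeR, where 0.015%, 0.267% and 0.0548% of all genes were. The numbers at an unadjusted p under 0.05 were 1 of 39 tested in intestine, 3 of 21 in liver and 5 of 16 in pancreas, beside 6.09%, 9.45% and 8.09% of all genes. DESeq2 called 0, 2 and 0 members, beside 107, 204 and 49 of all genes. In liver the interferon-induced Cxcl9 was at 12.3, 11.2 and 15.6 CPM in AD and at 29.3, 17.7 and 32 CPM in Null, without overlap (-0.96 ± 0.23, edgeR adjusted p = 0.167). Cxcl1 was at 12.9, 11.9 and 7.26 CPM in AD and at 6.44, 3.82 and 5.39 CPM in Null (1.08 ± 0.28, edgeR adjusted p = 0.222). Cxcl12 was at 176, 201 and 226 CPM in AD and at 278, 290 and 265 CPM in Null (-0.42 ± 0.11, edgeR adjusted p = 0.256). The AD and Null values of these 3 did not overlap, which was not counted over all genes for this contrast. DESeq2 called Cxcl1 and Cxcl9, and edgeR without the filter on low counts called all 3. The number of all genes called without that filter is not given here, so these 3 calls have no share to be set beside. In pancreas Cxcl16 was at 1.61, 2.30 and 1.94 CPM in AD and at 4.18, 3.33 and 4.52 CPM in Null (-1.05 ± 0.35, edgeR adjusted p = 0.438). In intestine the 1 member was Ccl20, an attractant of Ccr6-bearing cells (0.62 ± 0.26, edgeR adjusted p = 0.804).

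The family was also laid out over the 4 basal tissues of AD and Null mice, with 5 thymus libraries and 6 of each other tissue. By mean CPM, 25 members were highest in thymus, 19 in intestine, 7 in liver and 2 in pancreas. In 16, 9, 5 and 0 of these, all among the 50 members tested, every library of that tissue was above every library of the other tissues. Over all genes tested the same held for 20.4% in thymus, 10.8% in intestine, 12.4% in liver and 7.24% in pancreas. Each tissue was tested against the mean of the other 3. Of the 50 members tested, 32 were called higher and 8 lower in thymus (80.0%, beside 74.2% of all genes). In intestine 26 were higher and 6 lower (64.0%, beside 63% of all genes), and in liver 8 and 20 (56.0%, beside 70.8%). In pancreas 2 were higher and 27 lower (58.0%, beside 61.8%). Of all genes, 43.5% were higher and 30.7% lower in thymus, 35.4% and 27.6% in intestine, 30.1% and 40.8% in liver, and 30.7% and 31.1% in pancreas.

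Thymus held the receptors of thymocytes. Ccr9 was at 431 to 538 CPM (median 501), against 9.06 to 13.4 in intestine, 2.50 to 4.60 in pancreas and 0.971 to 3.27 in liver (log2 difference 6.77 ± 0.12, edgeR adjusted p = 6.14e-22). Neighbouring tissues in that order did not overlap except pancreas and liver. Cxcr4 was at 150 to 180 CPM in thymus and at most 8.28 CPM elsewhere (6.13 ± 0.15), and Ccr7 at 29.4 to 38.0 CPM and at most 2.01 (6.15 ± 0.32). Ccr4 was at 20.1 to 27.2 CPM in thymus, 0.282 to 0.593 in intestine, and at 0 in 3 of 6 liver and 5 of 6 pancreas libraries. Ccr8 was at 3.82 to 4.60 CPM in thymus and at most 0.258 elsewhere. Ccl22, a ligand of Ccr4 made by dendritic and medullary cells, was at 27.2 to 37.1 CPM in thymus and at 1.02 to 2.66 in intestine. Per kilobase of exon, the thymus means were 90.7 for Cxcr4, 48.2 for Ccr9, 39.2 for Ccl21a, 30.2 for Ccl25, 17.5 for Ccr7 and 6.64 CPM for Cxcl12. Called lower in thymus with the largest differences were Cxcl14 (-2.81), Ccl9 (-2.09), Ccl6 (-1.95), Ccl24 (-1.86), Ccl28 (-1.34) and Ccr3 (-1.27, lost without the pancreas library of AD-700 or Null-1087).

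Intestine held mucosal ligands. Ccl28, which draws plasma cells to mucosa, was at 32.3 to 41.7 CPM there and at most 1.34 in the other tissues (6.34 ± 0.19, edgeR adjusted p = 1.12e-18). Cx3cl1, a membrane-tethered ligand for macrophages and other cells bearing Cx3cr1, was at 51.2 to 81.6 CPM and at most 8.12 elsewhere (5.02 ± 0.20). Its receptor Cx3cr1 was at 10.9 to 15.3 CPM in intestine, also above every library of the other tissues. Ccl20 was at 2.05 to 5.24 CPM in intestine and 2.25 to 3.20 in thymus, which overlapped, while pancreas had none and 1 of 6 liver libraries had counts. Ccl11 was at 9.98 to 14.0 CPM in intestine, 4.52 to 6.72 in pancreas, 3.04 to 4.58 in thymus and at 0 in 4 of 6 liver libraries. Cxcl15 and Cxcl5 were at means of 0.863 and 0.330 CPM in intestine. Called lower there were Cxcl1 (-2.35), Cxcl12 (-2.31), Ccl12 (-1.15), Ccl2 (-0.84), Ccr2 (-0.51) and Ccr9 (-0.47). The call of Ccl2 was lost without any 1 of 9 libraries and the call of Ccl12 without any 1 of 4, and that of Ccl2 also with the mouse as a block. Ccl25 was highest in intestine, at 286 to 434 CPM, then thymus at 198 to 248, pancreas at 16.5 to 19.8 and liver at 9.31 to 13.2, each tissue clear of the next. Its receptor Ccr9 had the opposite order of intestine and thymus.

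In liver and pancreas most called members were lower. In liver Cxcl12 was at 176 to 290 CPM, against 51.2 to 56.2 in thymus, 18.6 to 40.2 in pancreas and 10.9 to 18.3 in intestine (2.96 ± 0.09, edgeR adjusted p = 3.73e-20), and thymus did not overlap either neighbour. Ccl9 was at 121 to 152 CPM in liver and at most 19.6 elsewhere (4.11 ± 0.09). Cxcl1 was at 3.82 to 12.9 CPM in liver and at most 0.961 elsewhere (4.54 ± 0.26). Cxcl9 (3.33) and Ccr3 (2.34) were also higher. Besides Ccl11, Ccl8 had counts in 1 of 6 liver libraries, and Ccl21a (-3.86), Cxcr4 (-3.85), Ccl28 (-3.83) and Ccr9 (-3.77) were lower there. In pancreas the 2 higher members were Ccl11 and Cxcl14 (1.35 ± 0.14), the latter at 3.42 to 4.17 CPM and below intestine at 12.5 to 20.8. Acinar markers summed to 651700 CPM or more in each pancreas library, and their part in the low levels of the members there was not tested. Pancreas libraries held few reads of most members: Cxcl2 had none, Ccl17 and Xcl1 had counts in 1 of 6 libraries each and Ccl22 in 3 of 6, while Cxcl9 (-5.56) and Cxcl10 (-4.38) were lower than in the other tissues.

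**Figure D5:**
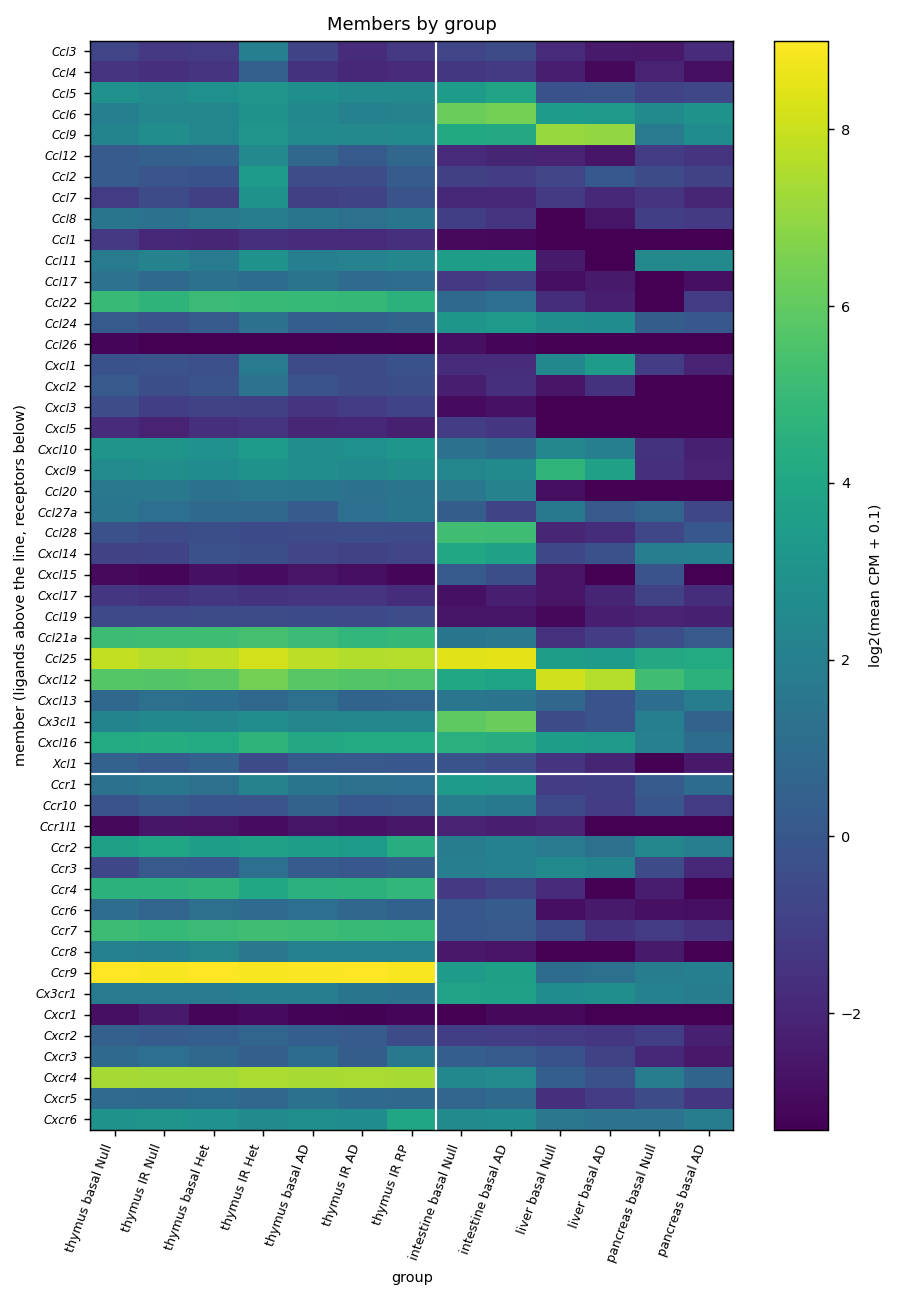
Heat map of log2(mean CPM + 0.1) for 52 of the 53 members in the 13 groups, with white lines between ligands and receptors and between thymus and the other tissues. Ccr9, Ccl25 and Cxcr4 are high in all thymus groups, Ccl25 also in intestine and Cxcl12 in liver; Ccl2, Ccl7 and Ccl3 are raised in the irradiated Het column.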

How the data were processed

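Raw read counts per gene (whole numbers, not normalized) were deposited by the authors in tables of the whole series. The submitters' processing notes name STAR 2.6.0b and the build GRCm38; the counting tool, its strand setting and the annotation release are not given in the sources used here. Columns were matched to mice by tissue, genotype and animal number; 8 basal thymus columns carry no tissue in their name and were matched as the one column left for that animal. GENCODE M21 gave symbols, biotypes and GRCm38 coordinates for 49326 IDs, and 259 were not matched. The members and all gene lists were chosen with earlier results of these data known.

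Counts as deposited were tested in R 4.3.3 with edgeR 4.0.16 (filterByExpr, TMM, robust quasi-likelihood F-test, Benjamini-Hochberg over all genes tested, threshold 0.05). All irradiated thymus groups were fitted together, likewise all basal thymus groups, all thymus groups for irradiation and its interaction with genotype, each other tissue by itself, and all basal AD and Null libraries for tissues. The SE of a log2 difference is its size divided by the square root of F, and a 95% interval is 1.96 SE either side. That is a normal approximation, and with so few libraries it is narrower than an interval from the F-test itself. DESeq2 1.42.0, its size factors, no filter on low counts, only the groups compared, Xist as a covariate for the unlabelled sex, and leaving out each library were alternatives. Tissues of 1 mouse share an animal number in the labels, so the mouse was a block in an alternative tissue fit. Residuals of 33 such pairs correlated at a median of 0.0773 (-0.166 to 0.353), with 11 pairs above 0.1. Genotypes share no mice. The mice of a group are separate animals, and 49 pairs of libraries within groups differed by a chi-square per degree of freedom of 4.04 to 244, so none was a repeat deposit.

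Named members are all those called (at most 15 in a direction, otherwise the 15 with the largest differences), Ccl2, Ccl7, Ccl3, Ccl4, Cxcl1, Cxcl10, Cxcl12, Ccl25, Ccr7, Ccr9 and Cxcr4 in irradiated thymus, and 6 in each direction per tissue; other genes were chosen after their values were seen. The script was tested on simulated counts. Counts limit the precision of low members, and intervals of single levels are not given. One member is counted among the 53 but its values are not reported here.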

Additional observations from a re-analysis of the deposited data

Results flagged for a closer look

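In each irradiated thymus group of 4, a library was looked at again where its gap to the nearest other was large against the group's range by Dixon's criterion. Of 192 groups of values 24 met it, where chance gives about 1 in 20, a figure that assumes normally distributed values. Some of the 24 rest on few counts, such as Xcl1 at 0.127 CPM. The share was not taken over all genes, and the members come from the same libraries, so the 24 are not independent. Of these 24, 5 were in Het-631. That mouse was lowest in Ccl21a (20.1 CPM), Ccr4 (9.59), Ccr6 (0.661), Cxcl16 (20.3) and Xcl1 (0.127). Het-594 was highest in Cxcl13 (2.38 CPM against at most 1.42) and Het-603 in Cxcr2 (2.79 against at most 1.25). In Null, Null-604 was lowest in Ccl22 (17.5 CPM) and Ccr9 (411) and highest in Ccl8 (2.59), Ccr2 (19.0) and Cxcr3 (4.39), and Null-857 was highest in Ccl1 (0.340). In RP, RP-653 was highest in Ccr2 (40.3 CPM), Ccr4 (38.3), Cxcr3 (8.13) and Cxcr6 (36.4), RP-656 in Ccl22 (26.4), and RP-649 was lowest in Ccl7 (0.366). In AD, AD-633 was highest in Ccl4 (0.198 CPM) and Cxcl9 (6.83), AD-726 in Cxcl10 (7.96), AD-727 was lowest in Ccl12 (0.837) and AD-630 in Ccl27a (0.774).

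The change with irradiation differed between genotypes for several members by the interaction test in edgeR. Against Null, the change was larger in Het on the log2 scale by 4.13 for Ccl2, 4.01 for Ccl3, 3.36 for Ccl7, 2.42 for Ccl4, 2.16 for Cxcl1, 2.08 for Cxcl2, 1.73 for Ccl12 and 0.61 for Ccl25. Against AD it was larger in Het by 4.73 for Ccl3, 3.95 for Ccl7, 3.82 for Ccl2, 2.68 for Ccl4, 2.65 for Ccl12, 2.17 for Cxcl1, 1.95 for Cxcl2, 1.2 for Ccr1, 1.16 for Ccl11, 1.0 for Ccl6, 0.84 for Ccl9, 0.64 for Cxcl12 and 0.57 for Ccl25. Het mice are shared by both.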

How the results depend on the processing

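No called member changed direction under any alternative run. Leaving out Het-631 moved the members called in irradiated thymus from 16 to 25 for Het against Null and from 17 to 27 for RP against Het. The genes called over the whole table went from 4257 to 5213 and from 4163 to 4775. Over each library left out in turn, the member counts ran from 14 to 25 and from 16 to 27, and from 15 to 24 for AD against Het (18 with all). In basal liver of AD against Null, 3 members were called with no filter on low counts and 2 by DESeq2, which called 204 of all genes (0 members as reported). In pancreas, 2 were called with no filter and 1 without AD-702, so the left-out counts ran from 0 to 1 (0 as reported). The numbers of all genes called with no filter, or without AD-702, are not given here. The interaction of Het against Null gave 3 to 11 members over left-out libraries (8 with all), the lowest without basal Null-923; the cause of these shifts was not tested. The other 321 counts of members under alternatives stayed within 1.5 times. Summed over all comparisons and alternatives, calls of single members were lost 146 times and gained 153 times. With the mouse as a replicate block, the tissue counts were 39 for thymus (40 without), 34 for intestine (32), 28 for liver (28) and 30 for pancreas (29). DESeq2 called 39 of the 50 members in liver against the other tissues, within the same factor, beside 19073 of the 24431 genes tested. By edgeR these numbers were 28 and 17308, so the lower share of members than of all genes there was seen by edgeR only.

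Depth limits members with few counts, such as Cxcl5, Ccl1 and most members in pancreas. Irradiated and basal thymus came from different mice, sex is not in the labels, and only 2 basal Null libraries bear on the irradiation change in Null.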

Other observations

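Ccl27a, the skin-homing ligand of Ccr10, varied widely within several thymus groups. In basal Het thymus it was at 0.471, 2.37 and 2.57 CPM, in basal AD thymus at 2.12, 0.786 and 0.374 CPM, and in irradiated Het thymus at 2.36, 1.97, 2.28 and 0.203 CPM. In irradiated RP thymus it was at 2.42 to 2.77 CPM, above all 4 irradiated Het libraries, a difference that did not pass (0.62 ± 0.45 on the log2 scale, SE; edgeR adjusted p = 0.383). It shares its sequence closely with Ccl27b, which had no counts.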
